A study of Mus musculus with 180 samples.

Results

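The iron and heme handling genes were 10 genes taken by symbol from an expression table of 13820 genes: Hamp (hepcidin), Slc40a1 (ferroportin), Trf (transferrin), Tfrc (transferrin receptor), Fth1 (ferritin heavy chain), Cp (ceruloplasmin), Hmox1 (heme oxygenase 1), Hp (haptoglobin), Hpx (hemopexin) and Lcn2 (lipocalin-2). All 10 were in the table, and each passed the filter on low values in all 15 tissues, which gave 150 pairs of a gene and a tissue. Rows were taken by symbol, but the members were chosen with earlier results of these data known. The data were RNA libraries of 15 tissues from each of 12 mice, 180 libraries in all, with 4 mice in a group. The TNF-deficient LPS mice (numbers 9 to 12) belonged to the strain B6.129S-Tnftm1Gkl/J, which carries a disrupted allele of the cytokine gene Tnf in every cell, and they received 5 mg/kg lipopolysaccharide (LPS), a component of the bacterial outer membrane. The wild-type LPS mice (numbers 5 to 8) were C57BL/6J and received the same dose. The PBS mice (numbers 1 to 4) were also C57BL/6J and received PBS. All mice were female, 6 weeks old and perfused through the heart before collection, and all libraries carry the time point 12 hours. The design had no TNF-deficient mice given PBS, which means that baseline differences of this strain cannot be told apart from differences in how it responded to LPS. Values of single mice are listed in the order of the mouse numbers.

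Iron circulates bound to transferrin, and cells take it up through the transferrin receptor, store it in ferritin and release it through ferroportin, the only known iron exporter of mammalian cells. Hepcidin, a peptide hormone made mainly by hepatocytes, binds ferroportin and has it degraded, which holds iron inside macrophages, enterocytes and hepatocytes. The hepcidin gene is driven by bone morphogenetic protein (BMP) signals that report iron stores and by interleukin-6 acting through STAT3 during infection. Ceruloplasmin is the copper ferroxidase that loads exported iron onto transferrin, and lipocalin-2 binds the siderophores with which bacteria collect iron. Free hemoglobin is bound by haptoglobin and free heme by hemopexin, and heme oxygenase 1 splits heme into iron, biliverdin and carbon monoxide. In cells that are short of iron, iron regulatory proteins bind a hairpin in certain messenger RNAs, the iron-responsive element, where they block translation from a 5′ UTR and protect the message from a 3′ UTR.

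The libraries tag the 3′ ends of poly(A) RNA, and the deposited value of a gene, here called its signal, is a normalized count in which 1 count stands for a signal of 0.322 to 3.6 depending on the library. Libraries held 311128 to 2573806 counts. All 45 genes checked as markers of the labelled tissues, 3 for each tissue, were higher in every library of their own tissue than the median of the other tissues. The liver transcript Alb (albumin) had a signal of 72958 to 183160 in liver and of 269 to 3280 in the other 14 tissues, and the values beside the results below show where it moved. Tnf itself was not lower in the TNF-deficient mice: its signal had a median of 35.3 over their 60 libraries, 12.6 over those of the wild-type LPS mice and 6.72 over those of the PBS mice. The labels do not say which stretch of Tnf the allele lacks, so its 3′ tag checks nothing.

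The iron-responsive elements of the exporter, the storage gene and the receptor are shown because they set these 3 members apart from the other 7, in whose longest transcripts the same search found none. Each is 27 bases of the GRCm38 (mm10) transcript sequence, read 5′ to 3′, with the CAGTGN loop in capitals. The search asked for a C, 5 bases, the loop CAGTGN and 5 bases that pair back to the first 5, G-U pairs allowed. It did not check that this C is unpaired, or any pairing of the bases outside it. With it, 271 of 21877 protein-coding genes (1.24%) had a match in their longest transcript. The elements of Slc40a1 and Fth1 lie in the 5′ UTR and the 4 matches found in Tfrc in the 3′ UTR. Elements with another loop or a mismatch in those 5 pairs would be missed, so a gene may hold more than were found. A match describes letters only, and the signal used here is an RNA level that does not measure translation.
Slc40a1 iron-responsive element, chr1:45925466-45925492, minus strand: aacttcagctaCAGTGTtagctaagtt
Fth1 iron-responsive element, chr19:9982733-9982759, plus strand: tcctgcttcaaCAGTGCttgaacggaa
Tfrc iron-responsive element A, chr16:32631220-32631246, plus strand: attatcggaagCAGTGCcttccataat
Tfrc iron-responsive element B, chr16:32631599-32631625, plus strand: attatcgggagCAGTGTcttccataat
Tfrc iron-responsive element C, chr16:32631664-32631690, plus strand: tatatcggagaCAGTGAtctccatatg
Tfrc iron-responsive element D, chr16:32631711-32631737, plus strand: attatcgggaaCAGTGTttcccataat

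The promoter of Hamp is shown because BMP and STAT signals are known to act on this gene. It is the 250 bases before the start of the RefSeq gene on GRCm38.p6 (chr7:30944030-30944279, minus strand), with 3 motif matches in capitals that follow each other closely. In order they are a BMP response element (GGCGCC), 109 to 104 bases before the start, a palindromic STAT site (TTCNNNGAA), 97 to 89 bases before it, and an AP-1 site (TGANTCA), 87 to 81 bases before it. On either strand, matches to these motifs stood in 9.59%, 7.02% and 6.75% of 32851 RefSeq promoter windows of the same length. Windows were at hand for 6 of the 10 members, and only the one of Hamp held a STAT match. The BMP element also had a match in a window of Tfrc, and the AP-1 site in a window of Cp. An antioxidant response element, a C/EBP site and an NF-kB site were searched for too, and the Hamp window held no match to them.
Hamp promoter: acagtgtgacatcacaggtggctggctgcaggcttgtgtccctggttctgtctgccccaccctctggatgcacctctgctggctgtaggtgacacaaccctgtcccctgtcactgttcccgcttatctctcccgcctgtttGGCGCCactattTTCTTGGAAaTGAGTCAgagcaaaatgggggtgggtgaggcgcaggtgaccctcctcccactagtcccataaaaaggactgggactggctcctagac

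Lcn2, Cp, Fth1, Hp and Hmox1 changed in most tissues after LPS, and Slc40a1, Trf, Tfrc, Hpx and Hamp in fewer. Over the 150 pairs, the wild-type LPS mice were higher than the PBS mice in 71 and lower in 14, at a Benjamini-Hochberg adjusted p under 0.05 from limma on log2(signal + 1). Over all 200124 tests of a gene in a tissue, 9.47% were higher and 10.4% lower. Because the members were chosen with earlier results of these data known, shares over all genes give a scale here. They do not test the members as a set. The 4 wild-type LPS mice lay above all 4 PBS mice in 69 pairs and below them in 11. The TNF-deficient LPS mice were higher than the wild-type LPS mice in 9 pairs and lower in 22, against 3.24% higher and 2.32% lower of all tests. They lay above all wild-type LPS mice in 10 pairs and below them in 25. How often 2 groups lie apart in this way was not counted over all genes, so these counts of ranges only describe the members. Lcn2, Cp, Fth1 and Hp made up most of the higher calls of the wild-type LPS mice, with 15, 14, 12 and 12 of 15 tissues, and Slc40a1 gave 6 of the 14 lower calls. The balance of higher and lower calls over all genes turned with the scaling. Between the LPS groups it was 3.24% higher and 3.44% lower by edgeR on the counts recovered from the signal, and 2.93% and 2.76% after median-of-ratios scaling. After LPS it was 10.3% higher and 10.1% lower by edgeR and 10.3% and 9.92% after median-of-ratios scaling. The members' calls between the LPS groups were 10 higher and 27 lower by edgeR and 9 higher and 23 lower after median-of-ratios scaling. The median log2 difference of the wild-type LPS mice from the PBS mice was 0.40 over the 150 pairs and -0.02 over all tests. Differences below are log2 differences of the log2(signal + 1) values with their standard error (SE), and they understate the change of a gene with a low signal. In whole tissue, fewer cells of a type and less RNA per cell cannot be told apart.

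**Figure D1:**
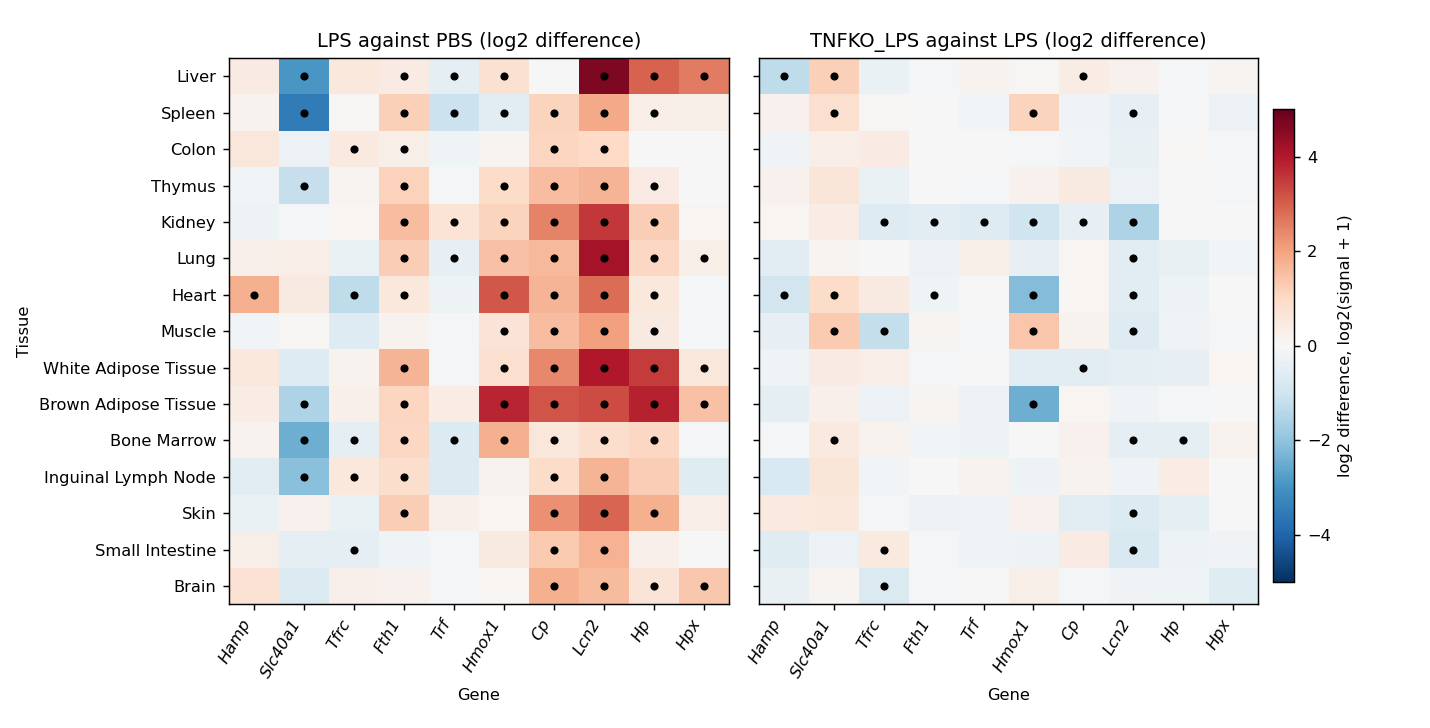
Log2 differences of log2(signal + 1) for the 10 genes (columns) in 15 tissues (rows), on the left for the wild-type LPS mice against the PBS mice and on the right for the TNF-deficient LPS mice against the wild-type LPS mice, 4 mice a group. Cells with a dot passed an adjusted p of 0.05, and the colour scale runs from -5 to 5. The columns of Lcn2, Cp, Fth1 and Hp are nearly all positive for LPS against PBS, while Slc40a1 is negative in 6 tissues with a dot.

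Hepcidin RNA in liver was lower in the TNF-deficient LPS mice than in either other group, while the wild-type LPS and PBS mice did not differ by the test. Hamp (chr7:30942368-30944032, minus strand, GRCm38) had a liver signal of 731, 880.1, 409 and 1059 in the TNF-deficient LPS mice. It was 1647, 1097, 2438 and 2138 in the wild-type LPS mice and 1252, 1623, 1044 and 1492 in the PBS mice. The livers of the TNF-deficient mice all lay below those of the wild-type LPS mice, whose range overlapped that of the PBS mice. The TNF-deficient LPS mice differed from the wild-type LPS mice by -1.27 (SE 0.21, adjusted p 9.9e-05), and the wild-type LPS mice from the PBS mice by 0.39 (SE 0.21, adjusted p 0.19). Without mouse 6, the lowest of the wild-type LPS mice, the second difference passed (0.62, adjusted p 0.016). The TNF-deficient LPS livers were also lower than the PBS livers, with a difference of -0.88 (SE 0.21, adjusted p 0.0033) and an overlap by mouse 12. Heart was the other tissue with a call between the LPS groups or after LPS, and the signal of Hamp there was 55.7, 42.3, 15.0 and 59.3 in the TNF-deficient LPS mice. Wild-type LPS mice had 91.4, 83.2, 49.7 and 78.5, and PBS mice 22.4, 18.4, 25.3 and 18.9. All hearts of wild-type LPS mice lay above those of the PBS mice (1.76, SE 0.27, adjusted p 1.1e-05), and the hearts of the TNF-deficient LPS mice lay above the PBS range in 3 mice and below it in mouse 11. The difference of the TNF-deficient from the wild-type LPS hearts was -0.93 (SE 0.27, adjusted p 0.037), and it was lost when leaving out mice 5, 8, 10 and 11 (each in turn, log2 changes -0.98 to -0.50, adjusted p 0.053 to 0.17), with no filter on low values (adjusted p 0.12), with a pseudocount of 0.25 (adjusted p 0.052) and with only the 2 compared groups in the fit (adjusted p 0.075). In the other 13 tissues Hamp had a signal of 2.14 to 34.0 per library, with its highest value in the lymph node of PBS mouse 1. The change after LPS differed among tissues (F = 2.63, adjusted p 0.0040), but not without mouse 1 (F = 1.89, adjusted p 0.052).

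Hamp2, the near copy of Hamp, was lower in liver after LPS, where Hamp was not. It is one of the other iron genes listed here, and it was singled out after its values were seen because reads of the 2 copies can be confused. In liver Hamp2 had a signal of 7.95 to 27.2 in the TNF-deficient LPS mice, 47.8 to 179 in the wild-type LPS mice and 333 to 899.9 in the PBS mice, and the 3 ranges did not overlap. It differed by -2.50 (adjusted p 3.0e-06) between the TNF-deficient and wild-type LPS mice and by -2.59 (adjusted p 2.4e-07) between the wild-type LPS and PBS mice. In heart Hamp2 was at 1.23 to 5.45 in the TNF-deficient LPS mice, 1.13 to 4.56 in the wild-type LPS mice and 0.788 to 6.89 in the PBS mice. Skin was the other tissue with Hamp2 calls, at 76.2 to 118 in the TNF-deficient LPS mice, 23.8 to 48.4 in the wild-type LPS mice and 34.0 to 125 in the PBS mice. There the wild-type LPS mice were lower than the PBS mice (-1.01, adjusted p 0.014), and the TNF-deficient LPS mice were higher than the wild-type LPS mice (1.37, adjusted p 0.0092), the opposite direction to liver. The labels do not say how tags that match both copies were counted, so the values of both are uncertain to that extent.

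Ferroportin, the iron exporter, fell in spleen, liver and bone marrow, the organs in which macrophages recycle red cells. Slc40a1 (chr1:45908068-45926523, minus strand) carries an iron-responsive element in its 5′ UTR. It had a spleen signal of 23.3, 47.0, 28.5 and 41.3 in the TNF-deficient LPS mice. Values were 13.3, 24.4, 18.8 and 21.6 in the wild-type LPS mice and 228, 236, 222 and 219 in the PBS mice. In liver it had 31.1, 31.2, 25.2 and 40.2 in the TNF-deficient LPS mice. The signal was 17.7, 14.6, 10.0 and 11.9 in the wild-type LPS mice and 110.0, 97.1, 104 and 111 in the PBS mice. No wild-type LPS mouse came near the PBS range in either organ, and the differences from the PBS mice were -3.50 (SE 0.20, adjusted p 6.2e-15) in spleen and -2.90 (SE 0.21, adjusted p 3.1e-12) in liver. Bone marrow gave 30.7, 38.7, 39.3 and 35.0 in the TNF-deficient LPS mice, 24.5, 29.0, 21.7 and 25.2 in the wild-type LPS mice and 150.3, 152, 138 and 128 in the PBS mice, with a difference of -2.46 (SE 0.12, adjusted p 8.8e-14) between wild-type LPS and PBS mice. The 3 other falls after LPS were in inguinal lymph node (-2.08, adjusted p 4.5e-05), brown fat (-1.55, adjusted p 0.0044) and thymus (-1.14, adjusted p 7.8e-04). Against the wild-type LPS mice, the TNF-deficient LPS mice were higher in liver (1.19, SE 0.21, adjusted p 1.8e-04), spleen (0.79, SE 0.20, adjusted p 0.015) and bone marrow (0.50, SE 0.12, adjusted p 0.012). All TNF-deficient mice lay above all wild-type LPS mice in liver and marrow and overlapped them in spleen. In these 3 tissues they were still below the PBS mice, with differences of -1.71, -2.71 and -1.96. The spleen difference from the wild-type LPS mice was lost without mice 5, 10 and 12 (each in turn, log2 changes 0.62 to 0.69, adjusted p 0.060 to 0.081), and with only the compared groups in the fit (adjusted p 0.088), and in that smaller fit the marrow difference had an adjusted p of 0.0503.

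In heart and muscle Slc40a1 was higher in the TNF-deficient LPS mice than in both other groups. Its heart signal was 52.7, 60.2, 62.9 and 56.6 in the TNF-deficient LPS mice. It was 34.0, 57.0, 24.8 and 17.4 in the wild-type LPS mice and 20.6, 23.0, 23.7 and 21.3 in the PBS mice. In skeletal muscle it was 90.8, 52.1, 51.8 and 49.3 in the TNF-deficient LPS mice. Wild-type LPS mice had 22.4, 34.5, 17.3 and 22.8, and PBS mice 26.8, 18.0, 19.1 and 26.6. The TNF-deficient mice lay above all PBS mice in both tissues and above all wild-type LPS mice in muscle, and in heart only wild-type LPS mouse 6 reached their range. Against the wild-type LPS mice the difference was 0.91 (SE 0.22, adjusted p 0.011) in heart and 1.29 (SE 0.24, adjusted p 6.2e-04) in muscle, and against the PBS mice it was 1.35 (SE 0.22, adjusted p 4.9e-05) and 1.37 (SE 0.24, adjusted p 4.9e-05). Leaving out mouse 8 (log2 change 0.66, adjusted p 0.070) ended the heart call against the wild-type LPS mice. The heart difference of the wild-type LPS from the PBS mice, 0.44, was not called with all mice and was called without mouse 8 (0.70, adjusted p 0.015). Over all tissues, the difference between the LPS groups did not pass as varying among tissues (F = 2.07, adjusted p 0.060), while the change after LPS did (F = 19.0, adjusted p 1.9e-25).

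Macrophages are among the cells that express ferroportin in liver, spleen and marrow. Of these 3 organs, only liver had sums of resident macrophage markers below the PBS mice in both LPS groups. In thymus, where Slc40a1 fell in the wild-type LPS mice, the sums of both LPS groups lay above those of the PBS mice. The summed signal of 12 such markers in liver was 314 to 389 in the TNF-deficient LPS mice, 281 to 370.1 in the wild-type LPS mice and 574 to 740.4 in the PBS mice. In spleen it was 963 to 1139.5 in the TNF-deficient LPS mice, 703 to 1354 in the wild-type LPS mice and 1141 to 1323 in the PBS mice, where the Kupffer cell markers Clec4f and Vsig4 were at 0 in every mouse of both LPS groups. In bone marrow it was 424 to 617 in the TNF-deficient LPS mice, 305 to 737 in the wild-type LPS mice and 628 to 678 in the PBS mice. The sums of the TNF-deficient LPS mice lay below those of the PBS mice in all 3 organs, and the sums of the wild-type LPS mice lay below them in liver and overlapped them in spleen and marrow. In thymus, the sum was 536 to 686 in the TNF-deficient LPS mice, 569 to 722 in the wild-type LPS mice and 390.3 to 424 in the PBS mice, and in the lymph node 556 to 669 in the TNF-deficient LPS mice, 539 to 947 in the wild-type LPS mice and 673 to 828 in the PBS mice. The erythroid sum in marrow, given below with Tfrc, was also lower in both LPS groups than in the PBS mice. The part of these marker levels in the fall of Slc40a1 was not tested.

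**Figure D2:**
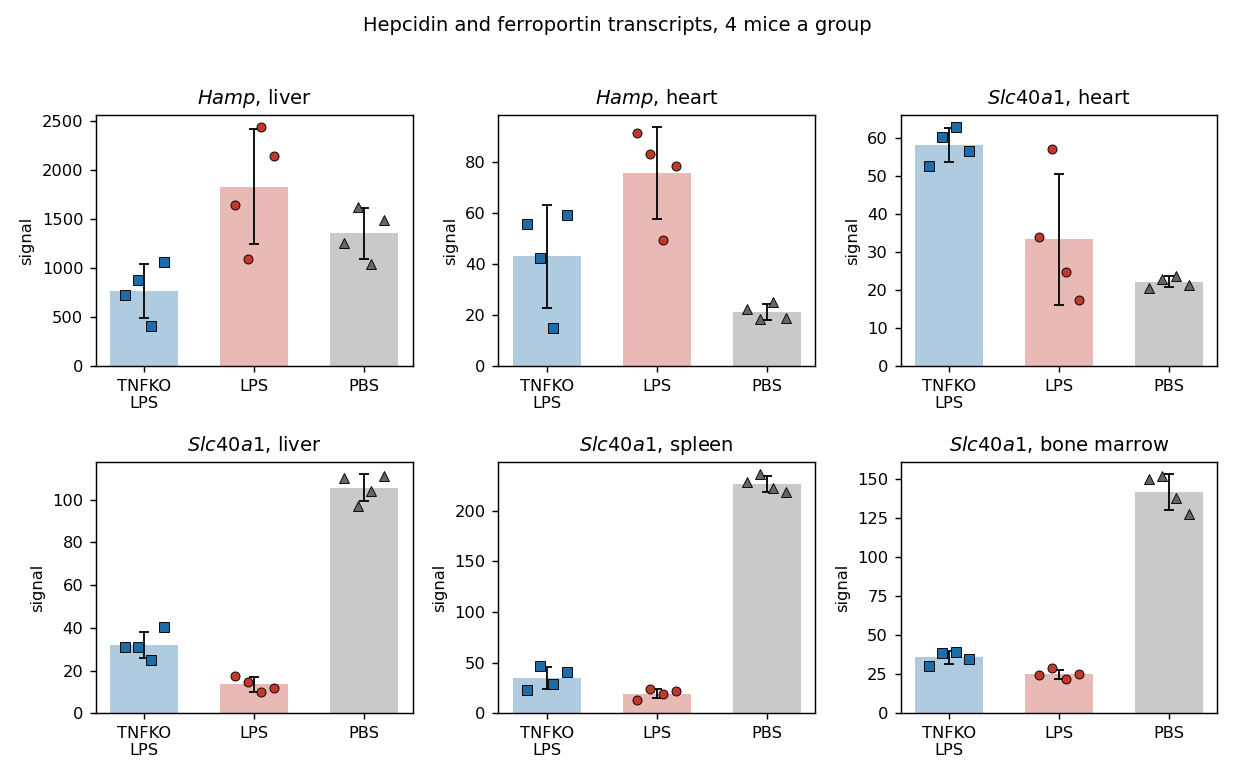
Signal of Hamp in liver and heart and of Slc40a1 in heart, liver, spleen and bone marrow for the TNF-deficient LPS, wild-type LPS and PBS mice (1 point a mouse, bars at the mean with 1 SD, axes from 0, n = 4 a group). Hamp in liver is lowest in the TNF-deficient LPS mice, at 409 to 1059, and Slc40a1 in liver, spleen and marrow lies far below the PBS mice in both LPS groups.

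Transferrin, the plasma iron carrier, fell modestly in liver, its main source. Trf (chr9:103204001-103230444, minus strand) had a liver signal of 8145, 7563, 8195 and 8549 in the TNF-deficient LPS mice. Values were 6493, 7327, 6690.2 and 8422 in the wild-type LPS mice and 10064, 9485, 9773 and 10846 in the PBS mice. All wild-type LPS livers were below the PBS livers (-0.48, SE 0.10, adjusted p 3.4e-04), and the TNF-deficient LPS livers lay at a level that did not differ from theirs by the test (0.17, SE 0.10, adjusted p 0.35). Lower levels after LPS were also called in spleen (-1.07, adjusted p 6.2e-07), bone marrow (-0.69, adjusted p 3.1e-06) and lung (-0.40, adjusted p 0.032). The lung call was lost without mice 2, 3, 4 and 6 (each in turn, log2 changes -0.39 to -0.22, adjusted p 0.073 to 0.14). Kidney was the exception: Trf had a signal of 102, 94.5, 82.4 and 114 in the TNF-deficient LPS mice, 171, 167, 124 and 147 in the wild-type LPS mice and 83.1, 99.2, 97.2 and 95.5 in the PBS mice there. The wild-type LPS kidneys stood above both other groups with no overlap, by 0.69 (SE 0.12, adjusted p 3.8e-05) over the PBS mice, and the TNF-deficient LPS kidneys differed from them by -0.63 (SE 0.12, adjusted p 3.7e-04).

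The transferrin receptor, which marks cells that take up iron, moved in both directions. Tfrc (chr16:32608920-32632794, plus strand), in whose 3′ UTR the search found 4 matches to the element, was highest in bone marrow, where red cells are made, at 282 to 305 in the PBS mice. After LPS it fell in heart, with 28.8, 30.7, 19.3 and 21.1 in the TNF-deficient LPS mice. The signal was 20.4, 15.9, 15.8 and 19.2 in the wild-type LPS mice and 50.2, 57.0, 36.0 and 37.0 in the PBS mice. The wild-type LPS hearts all lay below the PBS hearts (-1.27, SE 0.20, adjusted p 1.4e-05). Smaller falls were called in bone marrow (-0.45, adjusted p 0.0014) and small intestine (-0.46, adjusted p 0.016), and rises in inguinal lymph node (0.51, adjusted p 0.047) and colon (0.48, adjusted p 0.029). Beside the marrow call, the summed signal of 11 erythroid genes in marrow was 128942 to 144789 in the TNF-deficient LPS mice, 153256 to 175386 in the wild-type LPS mice and 220858 to 241965 in the PBS mice, and its part in that call was not tested. The colon call was lost without mice 2, 4, 5 and 6 (each in turn, log2 changes 0.39 to 0.47, adjusted p 0.060 to 0.11). The lymph node call was lost without mice 2, 3, 4, 5, 6, 7, 8, 10 and 11 (each in turn, log2 changes 0.43 to 0.55, adjusted p 0.051 to 0.13). In muscle, Tfrc had 25.5, 38.5, 32.0 and 19.1 in the TNF-deficient LPS mice. It was 36.2, 60.3, 69.2 and 119.5 in the wild-type LPS mice and 127, 107, 79.9 and 102 in the PBS mice. The TNF-deficient LPS muscles were below all PBS muscles and overlapped the lowest wild-type LPS muscle, with a difference of -1.20 (SE 0.24, adjusted p 0.0016) from the wild-type LPS mice. They were also lower in kidney (-0.65, adjusted p 0.014) and brain (-0.73, adjusted p 0.020) and higher in small intestine (0.48, adjusted p 0.033). The kidney call was lost without mice 7 and 12 (each in turn, log2 changes -0.55 to -0.54, adjusted p 0.059 to 0.060), the brain call without mice 5, 7, 8 and 12 (each in turn, log2 changes -0.75 to -0.63, adjusted p 0.061 to 0.099), and the small intestine call without mice 5, 6, 8, 10, 11 and 12 (each in turn, log2 changes 0.40 to 0.48, adjusted p 0.056 to 0.13). The muscle difference lay below the mean of the other tissues, with a difference of -1.15 (SE 0.23, adjusted p 4.6e-04).

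Ferritin heavy chain, the iron-storage subunit that oxidises iron as it is taken in, rose in 12 of 15 tissues after LPS. Fth1 (chr19:9980598-9985098, plus strand), which carries the same element in its 5′ UTR, rose most in white fat (1.72, adjusted p 2.9e-10) and kidney (1.54, adjusted p 2.4e-14). In white fat its signal was 7856, 6779.9, 7933 and 7058 in the TNF-deficient LPS mice. Wild-type LPS mice had 8403, 7448, 8058 and 7440.4, and PBS mice 2282, 2359, 2303 and 2589. Kidney gave 10053, 11418, 12858 and 11142 in the TNF-deficient LPS mice. Values were 17402, 17030, 16419 and 15451 in the wild-type LPS mice and 5465, 5867, 5623 and 5850.2 in the PBS mice. In white fat the LPS groups overlapped and both stood above all PBS mice, and in kidney the TNF-deficient LPS mice lay between the other groups with no overlap. The kidney difference between the LPS groups was -0.55 (SE 0.08, adjusted p 1.0e-05), and the smaller one in heart was -0.20 (SE 0.06, adjusted p 0.049). The heart call was lost without mice 1, 2, 3, 5, 7, 8, 9, 10, 11 and 12 (each in turn, log2 changes -0.22 to -0.17, adjusted p 0.054 to 0.17). The 3 tissues without a call after LPS were muscle (0.18, adjusted p 0.25), brain (0.20, adjusted p 0.39) and small intestine (-0.21, adjusted p 0.23). In liver, spleen, thymus, brown fat, bone marrow and lymph node Fth1 was called higher and Slc40a1 lower after LPS. Fth1 has processed pseudogenes, and the gene most like it in pattern was one of them, Gm6977, at a signal of 3.02 to 58.9 in a library. The labels do not say how tags of such copies were counted.

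Ceruloplasmin, the plasma ferroxidase, rose after LPS in 14 of 15 tissues, all but its main source, the liver. Cp (chr3:19957054-20009145, plus strand) had a liver signal of 1521, 1389.5, 1503 and 1511 in the TNF-deficient LPS mice. The signal was 1032, 1049, 1163 and 1321 in the wild-type LPS mice and 1114, 1186, 1089 and 1117 in the PBS mice. Wild-type LPS and PBS livers overlapped (0.01, SE 0.09, adjusted p 0.94), and the TNF-deficient LPS livers lay above all wild-type LPS livers (0.38, SE 0.09, adjusted p 0.0061). Brown fat had the largest rise: the signal there was 386, 540.4, 492 and 475 in the TNF-deficient LPS mice. It was 450.0, 485, 393 and 412 in the wild-type LPS mice and 36.0, 44.6, 56.4 and 56.1 in the PBS mice. Both LPS groups stood above all PBS mice, with a difference of 3.16 (SE 0.14, adjusted p 6.8e-13) for the wild-type mice. In kidney Cp was at 244, 325, 329.9 and 305 in the TNF-deficient LPS mice, 482, 454, 349 and 323 in the wild-type LPS mice and 81.7, 68.0, 69.3 and 61.3 in the PBS mice, a difference of 2.49 (SE 0.12, adjusted p 2.4e-14) after LPS. The remaining 12 rises ran from 0.57 in bone marrow to 2.40 in white fat. The TNF-deficient LPS mice were lower than the wild-type LPS mice in white fat (-0.55, adjusted p 0.0083) and kidney (-0.41, adjusted p 0.021), and the kidney call was lost without mice 5 and 9 (each in turn, log2 change -0.31, adjusted p 0.10). In a joint fit of all tissues the liver change after LPS differed from the mean of the other 14 by -1.67 (SE 0.16, adjusted p 3.4e-18), and the brown fat change by 1.71 (SE 0.16, adjusted p 6.0e-18).

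Heme oxygenase 1, the enzyme that degrades heme, split the LPS groups in 5 tissues, in both directions. Hmox1 (chr8:75093621-75100589, plus strand) had a brown fat signal of 88.6, 69.0, 79.6 and 52.9 in the TNF-deficient LPS mice. Wild-type LPS mice had 395, 309.6, 319 and 581, and PBS mice 25.2, 22.3, 30.6 and 29.5. In heart it had 58.8, 32.0, 34.3 and 45.0 in the TNF-deficient LPS mice. Values were 214, 83.2, 351 and 197 in the wild-type LPS mice and 23.3, 11, 26.8 and 28.4 in the PBS mice. In both tissues, every wild-type LPS mouse was above every mouse of the other groups, by 3.81 (SE 0.19, adjusted p 5.8e-12) in brown fat and 3.09 (SE 0.29, adjusted p 2.2e-09) in heart over the PBS mice. The TNF-deficient LPS mice were lower than the wild-type LPS mice, with differences of -2.43 (SE 0.19, adjusted p 1.8e-07) and -2.16 (SE 0.29, adjusted p 1.5e-05), and higher than the PBS mice, with differences of 1.38 and 0.94. In the same 2 tissues the summed signal of resident macrophage markers overlapped between the LPS groups, with 258 to 328 in the TNF-deficient LPS mice, 223 to 271 in the wild-type LPS mice and 198 to 247 in the PBS mice in heart and 152 to 183 in the TNF-deficient LPS mice, 132 to 190.3 in the wild-type LPS mice and 131 to 156 in the PBS mice in brown fat. Skeletal muscle markers moved in the brown fat libraries, with a summed signal of 1088 to 5565 in the TNF-deficient LPS mice, 2013 to 9004 in the wild-type LPS mice and 1096 to 2973 in the PBS mice. Without wild-type LPS mice 7 and 8, the libraries with the most of it, the brown fat differences of Hmox1 were -2.28 (SE 0.22, adjusted p 8.3e-06) between the LPS groups and 3.66 (SE 0.22, adjusted p 2.5e-10) after LPS. Kidney had 51.3, 52.5, 60.1 and 53.4 in the TNF-deficient LPS mice, 105, 78.2, 129 and 128 in the wild-type LPS mice and 82.4, 27.4, 65.4 and 41.3 in the PBS mice, and a difference of -0.98 (SE 0.22, adjusted p 0.0020) between the LPS groups, which did not overlap. The wild-type LPS kidneys were 1.10 (SE 0.22, adjusted p 2.1e-04) above the PBS kidneys, of which mouse 1 reached their range.

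Spleen and muscle went the opposite way. The spleen, where red cells are broken down, had the highest Hmox1 of the PBS tissues and a signal of 334, 514, 424 and 542 in the TNF-deficient LPS mice. The signal was 204, 361, 154 and 162 in the wild-type LPS mice and 260.2, 342, 305 and 309 in the PBS mice. Muscle had 114, 104, 70.1 and 138 in the TNF-deficient LPS mice. It was 37.9, 40.2, 37.1 and 41.6 in the wild-type LPS mice and 26.8, 28.2, 22.6 and 20.7 in the PBS mice. In muscle the 3 groups did not overlap and the TNF-deficient LPS mice were highest, and in spleen 1 mouse of each LPS group overlapped the other. The differences between the LPS groups were 1.10 (SE 0.17, adjusted p 1.1e-04) in spleen and 1.38 (SE 0.19, adjusted p 1.6e-05) in muscle. After LPS alone the spleen was lower than in the PBS mice (-0.54, SE 0.17, adjusted p 0.024), and this call was lost without mice 2, 3, 5, 7 and 8 (each in turn, log2 changes -0.54 to -0.40, adjusted p 0.055 to 0.13) and with no filter on low values (adjusted p 0.13). The rise in muscle (0.66, SE 0.19, adjusted p 0.017) was lost without mouse 4 (log2 change 0.59, adjusted p 0.061). Other rises after LPS were called in bone marrow (1.77, adjusted p 7.4e-10), lung (1.45, adjusted p 8.7e-08), thymus (0.93, adjusted p 7.1e-05), white fat (0.81, adjusted p 0.0043) and liver (0.77, adjusted p 3.6e-04). In marrow the LPS groups overlapped and lay above the PBS mice, with 303 to 432 in the TNF-deficient LPS mice, 323 to 445 in the wild-type LPS mice and 80.4 to 142 in the PBS mice. The difference between the LPS groups varied among tissues (F = 19.8, adjusted p 2.7e-24): against the mean of the other 14 tissues it was -2.33 (SE 0.24, adjusted p 4.6e-14) in brown fat, -2.03 (SE 0.24, adjusted p 2.2e-11) in heart, -0.77 (SE 0.24, adjusted p 0.035) in kidney, 1.46 (SE 0.24, adjusted p 1.5e-05) in spleen and 1.75 (SE 0.24, adjusted p 1.1e-08) in muscle.

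**Figure D3:**
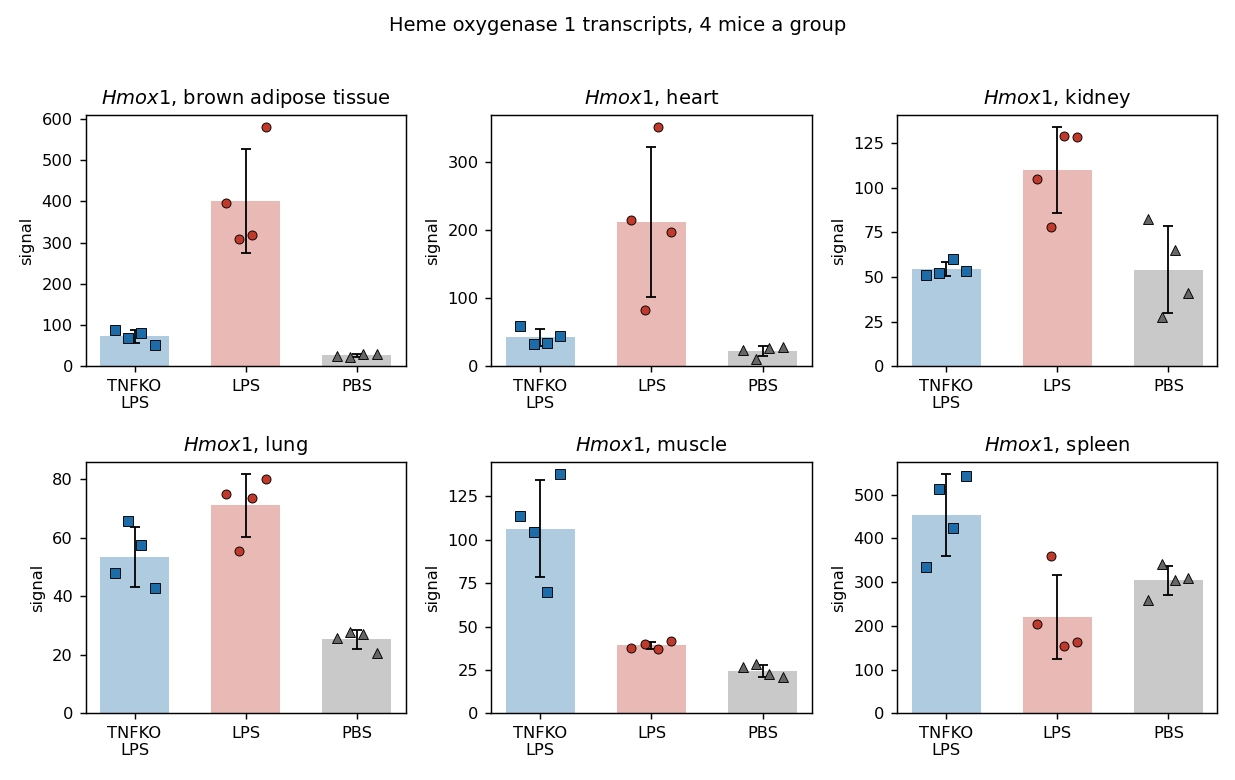
Signal of Hmox1 in 6 tissues for the TNF-deficient LPS, wild-type LPS and PBS mice (1 point a mouse, bars at the mean with 1 SD, axes from 0, n = 4 a group). The TNF-deficient LPS mice lie below the wild-type LPS mice in brown fat, heart and kidney and above them in muscle, with 70.1 to 138 against 37.1 to 41.6.

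Haptoglobin, which binds free hemoglobin, rose strongly in liver and in both fat depots. Hp (chr8:109575128-109579172, minus strand) had a liver signal of 19363, 17008, 18175 and 20446 in the TNF-deficient LPS mice. Wild-type LPS mice had 18245, 18714, 17845 and 26368, and PBS mice 2426, 2651, 2534 and 2796. White fat had 9513, 7547, 10566 and 9191 in the TNF-deficient LPS mice. Values were 12528, 12141, 12745 and 11506 in the wild-type LPS mice and 1329.5, 1203, 929 and 947 in the PBS mice. Brown fat had 12027, 13056, 14237 and 12429 in the TNF-deficient LPS mice. The signal was 15216, 13503, 11969 and 13026 in the wild-type LPS mice and 851, 1095, 872 and 884 in the PBS mice. Both LPS groups were above all PBS mice in these 3 tissues, and the wild-type LPS mice differed from the PBS mice by 2.95 (SE 0.11, adjusted p 3.9e-18) in liver, 3.49 (SE 0.14, adjusted p 6.0e-15) in white fat and 3.86 (SE 0.11, adjusted p 4.3e-16) in brown fat. Against the mean change of the other 14 tissues, the change was larger by 2.77 (SE 0.25, adjusted p 1.0e-18) in brown fat, 2.37 (SE 0.25, adjusted p 1.9e-14) in white fat and 1.79 (SE 0.25, adjusted p 6.2e-10) in liver. Further rises were called in skin (1.78, adjusted p 2.0e-07), kidney (1.23, adjusted p 4.0e-10), bone marrow (1.04, adjusted p 1.1e-08) and lung (1.02, adjusted p 8.4e-06) and, with smaller differences, in brain (0.63, adjusted p 0.0021), heart (0.52, adjusted p 0.040), muscle (0.43, adjusted p 0.0044), thymus (0.40, adjusted p 0.010) and spleen (0.34, adjusted p 0.012). The heart call was lost without mice 1, 2, 3, 4 and 7 (each in turn, log2 changes 0.21 to 0.55, adjusted p 0.052 to 0.26), with no filter on low values (adjusted p 0.13) and with a pseudocount of 0.25 (adjusted p 0.054). The brain call was lost without mice 6 and 8 together (0.41, adjusted p 0.13), the thymus call without mouse 7 (log2 change 0.31, adjusted p 0.070) and the spleen call without mouse 2 (log2 change 0.29, adjusted p 0.056). In spleen, Alb was at 473 to 556 in the TNF-deficient LPS mice, 564 to 635 in the wild-type LPS mice and 463 to 505 in the PBS mice, a difference of 0.31 (adjusted p 0.014) after LPS, close to that of Hp. Adipocyte markers summed to 1726 to 2592 in the TNF-deficient LPS mice, 2713 to 5478 in the wild-type LPS mice and 1587 to 2544 in the PBS mice in skin and to 2622 to 2914 in the TNF-deficient LPS mice, 3127 to 3703 in the wild-type LPS mice and 1918 to 2779 in the PBS mice in heart. Every library outside liver had an Hp signal of 194 or more, and the smaller differences stand on that base. The part of liver RNA or of fat in these values was not tested. Against the wild-type LPS mice, the TNF-deficient LPS mice were lower in 1 tissue, bone marrow (-0.50, SE 0.10, adjusted p 0.0029). In lung the difference missed the threshold (-0.37) but was called by edgeR (-0.44, adjusted p 0.020) and without mouse 6 (-0.61, adjusted p 1.3e-05). Leaving out the same mouse also brought lower calls in lung for Fth1 (-0.45, adjusted p 5.1e-04), Hamp (-0.87, adjusted p 0.034) and Hmox1 (-0.52, adjusted p 0.036).

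In the inguinal lymph node, which lies in a fat pad, Hp varied beside the fat markers of the library. Its signal was 207, 2354, 1161 and 1687 in the TNF-deficient LPS mice. It was 935, 552, 621 and 1097 in the wild-type LPS mice and 1019, 242, 197 and 229.6 in the PBS mice. The summed signal of 10 adipocyte markers in the same nodes was 437, 4078, 2408 and 3652 in the TNF-deficient LPS mice. Wild-type LPS mice had 1747, 1399.6, 1134 and 2485, and PBS mice 2108, 2135, 476 and 461. The TNF-deficient mouse with the lowest Hp, mouse 9, also had the lowest adipocyte sum of its group, while PBS mouse 2, with an adipocyte sum of 2135, had an Hp signal of 242. The rise after LPS did not pass (1.24, SE 0.55, adjusted p 0.12), and without PBS mouse 1 it did (1.79, adjusted p 0.013). That node stood apart: its Alb signal was 3280, and it was the highest of the PBS nodes for Hamp, Trf, Lcn2, Hp and Hpx. The part of fat or liver RNA in these values was not tested.

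Hemopexin, the heme scavenger of plasma, rose in liver as haptoglobin did. Hpx (chr7:105591613-105600137, minus strand) had a liver signal of 38204, 34904, 34406 and 38652 in the TNF-deficient LPS mice. Values were 32255, 36018, 28445 and 36406 in the wild-type LPS mice and 5473, 5654, 5002 and 5797 in the PBS mice. Both LPS groups stood above all PBS livers and overlapped each other, with a difference of 2.60 (SE 0.10, adjusted p 1.5e-17) for the wild-type LPS mice. The next changes were in brown fat (1.45, adjusted p 1.7e-07), brain (1.34, adjusted p 2.2e-05), white fat (0.58, adjusted p 0.0010) and lung (0.30, adjusted p 0.047). The lung call was lost without mice 1, 2, 3, 4, 5, 7, 8, 11 and 12 (each in turn, log2 changes 0.24 to 0.33, adjusted p 0.052 to 0.16). Between the LPS groups limma called Hpx in 0 of 15 tissues, while 3 tissues had an unadjusted p under 0.05 and edgeR on the recovered counts called 1, brain (-0.69, adjusted p 0.018).

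The brain values of Hpx moved with albumin. In brain Hpx had a signal of 196, 275, 193 and 182 in the TNF-deficient LPS mice, 205, 369, 247 and 521 in the wild-type LPS mice and 119, 123, 125 and 128 in the PBS mice, and Alb of 428 to 728 in the TNF-deficient LPS mice, 504 to 1584 in the wild-type LPS mice and 294 to 301 in the PBS mice, a difference of 1.50 (adjusted p 6.2e-05) after LPS. Per unit of Alb signal above the PBS mean, Hpx was higher by 0.284, 0.351, 0.535 and 0.409 in the TNF-deficient LPS mice and by 0.396, 0.312, 0.413 and 0.309 in the wild-type LPS mice. In liver the ratio of Hpx to Alb was 0.32 to 0.409 in the TNF-deficient LPS mice, 0.316 to 0.494 in the wild-type LPS mice and 0.0287 to 0.0345 in the PBS mice. All 8 brain increments lay above the ratios of PBS livers. That of TNF-deficient mouse 11, 0.535, which had the least Alb of the LPS brains, lay above every liver ratio, and the other 7 lay within or below the range of the wild-type LPS livers. Without mice 6 and 8, the wild-type LPS brains with the most Alb, the Hpx difference in brain was still called (0.86, SE 0.15, adjusted p 0.0016). For the lymph node of PBS mouse 1 the same increment was 0.357, above the ratio of PBS livers and within that of LPS livers. In every library outside liver, Hpx was at 119 or more, Hp at 194 or more and Alb at 269 or more, the PBS mice included. Levels and small differences of Hp and Hpx outside liver stand on this base, whose source was not tested. Lcn2 was at 132 or more, Trf at 41.3 or more and Hamp at 2.14 or more in every library outside liver. Whether a base of this kind is part of their values was not tested. The part of RNA from liver in the values outside liver was not tested.

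**Figure D4:**
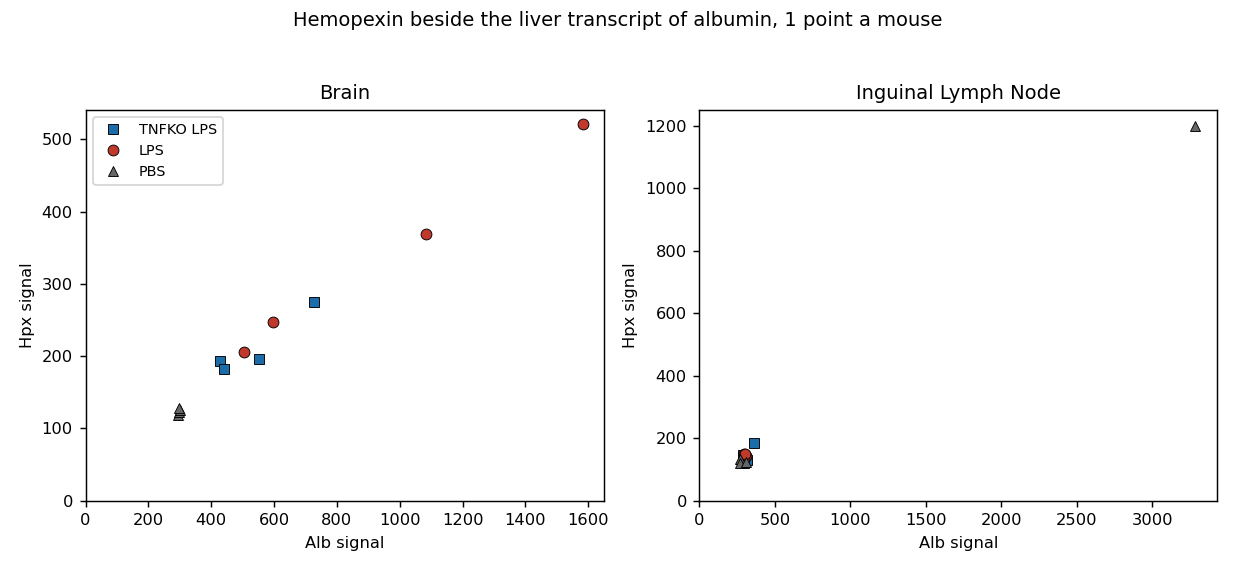
Signal of Hpx (vertical axis) against that of Alb (horizontal axis) in brain and inguinal lymph node, 1 point a mouse of the TNF-deficient LPS, wild-type LPS or PBS group, with axes from 0. In brain and lymph node the mice with the most Alb, at 1584 and 3280, also have the most Hpx, at 521 and 1197.

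Lipocalin-2, which binds bacterial siderophores, rose in all 15 tissues after LPS. Lcn2 (chr2:32384633-32388252, minus strand) had a liver signal of 11681, 12054, 10831 and 12260 in the TNF-deficient LPS mice. The signal was 9859.6, 9600, 9332 and 11746 in the wild-type LPS mice and 414, 376, 377 and 399 in the PBS mice. Both LPS groups were above the PBS livers by a wide margin (4.69 for the wild-type mice, SE 0.09, adjusted p 3.1e-25) and overlapped each other. Lung had 3239, 3888, 3621 and 3317 in the TNF-deficient LPS mice, 5293, 3659, 6183 and 5760 in the wild-type LPS mice and 292, 294, 282 and 265 in the PBS mice, with a difference of 4.17 (SE 0.12, adjusted p 3.3e-19) after LPS. The smallest rise was in bone marrow (0.88, SE 0.10, adjusted p 2.0e-07), which held the highest level of the PBS mice, 1017 to 1169. In 8 tissues the TNF-deficient LPS mice were lower than the wild-type LPS mice, most of all in kidney, where Lcn2 is a known marker of tubule injury: 702, 921, 905 and 790.0 in the TNF-deficient LPS mice. It was 2395, 1687, 2969 and 2753 in the wild-type LPS mice and 209, 209.9, 212 and 201 in the PBS mice. The 3 groups of kidneys did not overlap, and the difference between the LPS groups was -1.54 (SE 0.12, adjusted p 2.6e-09), which lay below the mean of the other tissues with a difference of -1.15 (SE 0.18, adjusted p 7.9e-07). The other lower calls were in small intestine (-0.75, adjusted p 0.0011), skin (-0.69, adjusted p 0.0022), muscle (-0.64, adjusted p 8.4e-04), lung (-0.55, adjusted p 0.0063), heart (-0.53, adjusted p 0.0014), bone marrow (-0.45, adjusted p 0.0066) and spleen (-0.40, adjusted p 0.0063). In liver the difference of the TNF-deficient from the wild-type LPS mice was 0.21 (SE 0.09, adjusted p 0.17), which lay above the mean of the other tissues with a difference of 0.73 (SE 0.18, adjusted p 0.0028).

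Lcn2 is also a neutrophil gene, and neutrophil markers moved in some of these tissues. The summed signal of 12 neutrophil markers in lung was 4435 to 7201 in the TNF-deficient LPS mice, 4798 to 5213 in the wild-type LPS mice and 463 to 514 in the PBS mice. In spleen it was 2079.9 to 2670.4 in the TNF-deficient LPS mice, 1143 to 2303 in the wild-type LPS mice and 574 to 736 in the PBS mice, and in bone marrow 13144 to 19846 in the TNF-deficient LPS mice, 17607 to 20583 in the wild-type LPS mice and 22331 to 24023 in the PBS mice. Kidney had 359 to 410.2 in the TNF-deficient LPS mice, 416 to 542 in the wild-type LPS mice and 313 to 423 in the PBS mice. All 12 markers were above 0 in each of these groups, and in bone marrow the sums of both LPS groups lay below those of the PBS mice while Lcn2 lay above. Their part in the Lcn2 values was not tested.

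**Figure D5:**
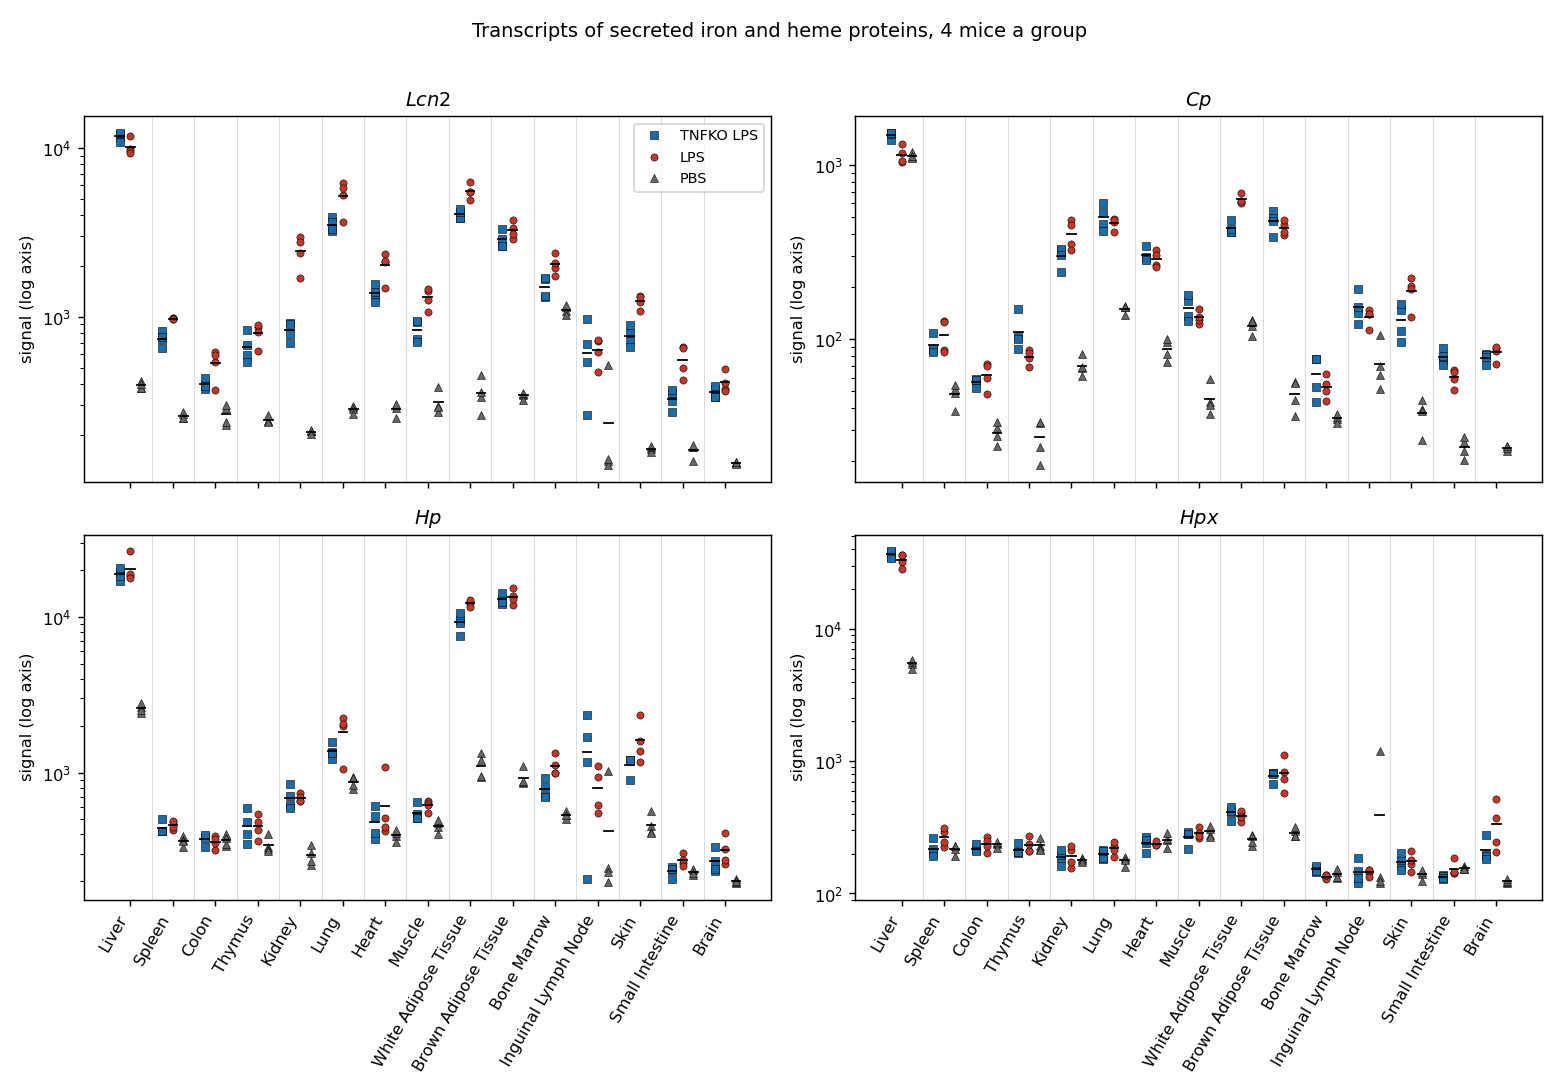
Signal of Lcn2, Cp, Hp and Hpx in 15 tissues on a log axis, for the TNF-deficient LPS, wild-type LPS and PBS mice (1 point a mouse, line at the mean, n = 4 a group). For Lcn2 both LPS groups lie above the PBS mice in 14 tissues and overlap them in the lymph node, and for Hpx the liver, at 5002 to 38652, stands far above all other tissues.

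Kidney was the tissue in which the TNF-deficient LPS mice were lower for the most members. There 6 of the 10, Tfrc, Fth1, Trf, Hmox1, Cp and Lcn2, were lower than in the wild-type LPS mice, while 6.82% of all kidney genes tested were lower and 13.2% higher. These kidney totals moved with the scaling: limma called 903 genes lower and 1749 higher, and 1207 and 1466 after median-of-ratios scaling. Heart had 4 lower members (Hamp, Fth1, Hmox1 and Lcn2) and 1 higher (Slc40a1), while 2.35% of all heart genes tested were lower and 3.32% higher. Muscle had 2 lower (Tfrc and Lcn2) and 2 higher (Slc40a1 and Hmox1), while 2.16% of all muscle genes tested were lower and 1.82% higher. In the lymph node limma called 0 of 10 members in either direction, edgeR called 0, and no member had an unadjusted p under 0.05. Of all lymph node genes tested, 1.40% were lower and 1.72% higher, so few calls among 10 genes would be usual there. Colon and thymus also had 0 calls, with 2 and 3 members at an unadjusted p under 0.05 and 1 call each by edgeR. Of all genes tested, 1.31% were lower and 2.51% higher in colon, and 2.16% lower and 2.30% higher in thymus.

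Set directly against the PBS mice, the TNF-deficient LPS mice were higher in 68 of the 150 pairs and lower in 15, while 6.71% of all tests were higher and 6.13% lower. Both the genotype and the LPS differ in this comparison, and it shares mice with the ones above. Lcn2 and Cp were higher in all 15 tissues, liver included for Cp (0.39, SE 0.09, adjusted p 0.0026), and Fth1 was higher in 13. Slc40a1 was lower in 6 tissues, with its largest differences in spleen (-2.71, SE 0.20, adjusted p 2.3e-12) and bone marrow (-1.96, SE 0.12, adjusted p 7.9e-12), and higher in heart and muscle. Hmox1 was higher in 8 tissues, most in muscle (2.04, adjusted p 4.7e-10), bone marrow (1.79, adjusted p 1.0e-09) and brown fat (1.38, adjusted p 2.9e-05). Of the 83 calls, 14 were lost when leaving out 1 mouse in turn. They were Fth1 in liver without mouse 12 (adjusted p 0.069), Fth1 in muscle without mouse 3 or 10 (adjusted p 0.068 to 0.076), Hamp in heart without mouse 1, 2, 4, 9, 10 or 12 (adjusted p 0.064 to 0.18), Hamp in inguinal lymph node without mouse 12 (adjusted p 0.053) and Hmox1 in heart without mouse 2, 9 or 12 (adjusted p 0.072 to 0.17). The others were Hmox1 in spleen without mouse 1, 10 or 12 (adjusted p 0.085 to 0.10), Hp in spleen without mouse 2, 3, 4, 9, 10, 11 or 12 (adjusted p 0.059 to 0.19), Hp in thymus without mouse 1, 2, 3, 9 or 11 (adjusted p 0.053 to 0.18), Hpx in brain without mouse 1, 2, 3 or 4 (adjusted p 0.055 to 0.082) and Slc40a1 in brown fat without mouse 3, 4, 10, 11 or 12 (adjusted p 0.066 to 0.11), besides Slc40a1 in small intestine without mouse 1, 2, 4, 9, 10 or 12 (adjusted p 0.055 to 0.12), Tfrc in bone marrow without mouse 1, 2, 3, 4, 10, 11 or 12 (adjusted p 0.062 to 0.13), Tfrc in kidney without mouse 1, 2, 3, 4, 5, 9 or 12 (adjusted p 0.051 to 0.17) and Trf in liver without mouse 1, 4, 9, 10 or 11 (adjusted p 0.061 to 0.10).

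Whether a change was the same in all tissues was tested in 1 fit of all 180 libraries. The change after LPS differed among tissues for all 10 members, against 65.3% of all genes, with the largest F for Lcn2 (F = 47.0, adjusted p 1.5e-46) and Fth1 (F = 36.5, adjusted p 6.2e-40). Of the 150 pairs, 70 differed from the mean of the other 14 tissues, against 10.9% of all such tests. The difference between the LPS groups varied among tissues for 5 members, Hmox1, Lcn2, Cp, Tfrc and Fth1, against 25.6% of all genes, and 11 pairs stood apart from the other tissues, against 2.12% of all such tests. The pairs not yet given were Fth1 in kidney, by -0.48 (SE 0.10, adjusted p 2.4e-04), and Cp in skin, by -0.61 (SE 0.16, adjusted p 0.028), and white fat, by -0.59 (SE 0.16, adjusted p 0.019).

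The PBS mice give the order of tissues for each gene without LPS, on the scaling of the deposited signal. Signal sums of the PBS libraries differ between tissues, with 1494808 to 1603067 in liver and 827136 to 863268 in colon. Close ranks, such as those of liver and colon for Slc40a1, depend on that scaling, and no other was tried for the order. The level of Hamp in liver, 1044 to 1623, stood apart from the next tissue, heart, at 18.4 to 25.3, whose range overlapped those of muscle and lymph node. Slc40a1 was highest in spleen (219 to 236), followed by bone marrow (128 to 152) and then by liver and colon, whose ranges overlapped. Tfrc in bone marrow stood apart from muscle and small intestine, which overlapped. Fth1 was highest in kidney (5465 to 5867) and brown fat (4512 to 5114), with no overlap. Hmox1 was highest in spleen (260.2 to 342), apart from bone marrow. For Trf, Cp, Hp and Hpx every liver stood above every PBS library of the other tissues. Lcn2 in bone marrow stood apart from liver, whose range overlapped that of white fat. After LPS, the top tissue of Slc40a1 was the colon, at 83.0 to 108 in the TNF-deficient LPS mice and 54.3 to 103 in the wild-type LPS mice, where it had not changed by the test (-0.31, SE 0.16, adjusted p 0.20).

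Other genes of iron and heme metabolism, 60 of 64 listed and found in the table, gave 102 higher and 153 lower calls in 893 tests for the wild-type LPS against the PBS mice, with a median log2 difference of -0.06. The list of iron uptake, reduction and transport had 52 higher and 18 lower of 180 tests (28.9% and 10.0%) and a median of 0.35. Slc39a14, which carries iron not bound to transferrin into cells, rose in 13 tissues, with 3.60 (adjusted p 8.1e-12) in white fat and 1.97 (adjusted p 1.8e-12) in liver. Steap4, an iron and copper reductase, also rose in 13 tissues, and in liver its mean signal was 2012 in the wild-type LPS mice against 116 in the PBS mice (4.05, adjusted p 3.1e-15). Slc39a8, a related carrier, rose in 6 and fell in 2, while Steap3, the reductase of the transferrin cycle, fell in 11 tissues, with -1.60 (adjusted p 2.5e-06) in bone marrow.

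The other 4 lists had more lower than higher calls after LPS, also by edgeR and after median-of-ratios scaling. Over all genes 9.47% of tests were higher and 10.4% lower, but that balance turned to 10.3% higher and 10.1% lower by edgeR. Hepcidin control had 6 higher and 35 lower of 173 (3.47% and 20.2%, median -0.14), where the BMP inhibitor Smad7 fell in 7 tissues, the BMP coreceptor hemojuvelin (Hfe2) in 5 (-1.01 in liver, adjusted p 0.0018), its partner Neo1 in 5 and the ligand Bmp6 in 4, with a rise of Bmp6 in kidney. Iron storage and sensing had 11 higher and 19 lower of 105 (10.5% and 18.1%, median -0.06): the iron regulatory protein Aco1 fell in 7 tissues (-2.07 in liver, adjusted p 1.2e-12), Ncoa4, the receptor that sends ferritin to lysosomes, fell in 6, Ftl1, the ferritin light chain, rose in 4 and fell in 3, and Fbxl5, which degrades iron regulatory protein, rose in 5. Heme synthesis and mitochondrial iron had 20 higher and 56 lower of 270 (7.41% and 20.7%, median -0.15), with falls of the heme pathway enzymes Uros in 10 tissues and Alad in 7 (-2.15 in liver, adjusted p 6.7e-11), rises of the mitochondrial iron carrier Slc25a28 in 9 and of the iron-sulfur scaffold Iscu in 6. Heme transport and breakdown had 13 higher and 25 lower of 165 (7.88% and 15.2%, median -0.08). In that list Slc46a1, a folate and heme carrier, fell in 7 tissues, and Cd163, the macrophage receptor for haptoglobin-hemoglobin, fell in 5, most in spleen (-3.01, adjusted p 3.3e-05). The hemopexin receptor Lrp1 rose in 5, and Slc48a1, a heme carrier of the lysosome, fell in 4 and rose in 1. Median differences of single lists stand beside -0.02 for all tests.

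Between the LPS groups the same genes gave 58 higher and 29 lower calls in the TNF-deficient LPS mice, 6.50% and 3.25% of 893 tests, with a median difference of 0.03, against 3.24% and 2.32% and a median of 0.02 over all tests. The storage and sensing list had 21 higher and 0 lower of 105 tests by limma, while 5 lower tests had an unadjusted p under 0.05 and edgeR called 3 lower. Ncoa4 made up 11 of the 21: its liver signal was 284 to 379.7 in the TNF-deficient LPS mice, 125 to 199 in the wild-type LPS mice and 134 to 187 in the PBS mice, and it differed by 1.05 (adjusted p 3.9e-06) in liver and 1.42 (adjusted p 8.7e-08) in kidney. The TNF-deficient LPS livers lay above both other groups, and against the PBS mice Ncoa4 was higher in 6 tissues, liver and kidney included (0.99 and 0.96). Ftl1, Aco1 and the iron chaperone Pcbp1 were each higher in 3 tissues. The uptake and transport list had 3 higher and 17 lower of 180: Steap4 was lower in 8 tissues (-1.30 in liver, adjusted p 6.2e-05) and Slc39a14 in 7 (-1.34 in kidney, adjusted p 1.5e-07), while Slc39a8 was higher in liver and lower in kidney and Steap3 was higher in kidney. Hepcidin control had 13 higher and 3 lower of 173, with Bmp2 higher in 3 tissues, Bmp6 and Neo1 in 2 each, and Hfe2 higher in liver (1.26, adjusted p 5.1e-04) and heart and lower in muscle. Heme synthesis had 14 higher and 6 lower of 270, with the enzymes Cpox higher in 4 tissues and Uros in 3, the mitochondrial glycine carrier Slc25a38 higher in 2 and Slc25a28 lower in 2. Heme transport and breakdown had 7 higher and 3 lower of 165: Cd163 was lower in 2 tissues, the biliverdin reductase Blvrb higher in 2, Blvra higher in kidney and lower in white fat, and Spic, a macrophage transcription factor induced by heme, higher in lung.

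The genes whose pattern was most like that of each member were read from Pearson correlations of the mean log2 values over the 45 groups of a tissue and condition, among 13819 genes. They are a description, since the groups are not independent: the same mice recur across tissues, and most of the pattern is the difference between tissues. The genes closest to Hamp were Sds, Ahsg and Hltf (r = 0.949 to 0.951), to Hpx Fgl1, Apcs and Mat1a (r = 0.971 to 0.975), to Trf Mup17, Rbp4 and Serpina3k (r = 0.918 to 0.939) and to Hp Coq8b, Nnmt and Orm3 (r = 0.894 to 0.900). Those closest to Cp were Cd302, Serpina3m and Fbxo6 (r = 0.851 to 0.895), to Lcn2 Saa3, Ifitm3 and Cxcl9 (r = 0.861 to 0.901) and to Fth1 Gm6977, Gbp3 and Gbp2 (r = 0.740 to 0.922). Tfrc was followed by Bpgm, Hist1h1a and Metap2 (r = 0.784 to 0.875), Hmox1 by Pirb, Fcgr2b and Ppp1r15a (r = 0.721 to 0.728) and Slc40a1 by Ethe1, Apeh and Ocel1 (r = 0.649 to 0.677), the lowest correlations of the 10.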

How the data were processed

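RNA was measured with 3′ tag libraries, primed with oligo-dT that carried a barcode and a 10-base unique molecular identifier per the labels' protocols. Whether identifiers were collapsed is not stated there. The submitters' processing notes name FastQC, MultiQC, edgeR and the build mm10, while no aligner is named in the sources used here. The authors deposited 1 value per gene and library in tables named for CPM, but the columns sum to 703690 to 1603067, so the unit is treated as a normalized signal. Each deposited signal is a whole multiple of 1 step per library (100% of values whole within 0.1 counts), which gave recovered counts of 311128 to 2573806 per library. All 270 pairs of replicate libraries differed beyond counting error.

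The test was limma's moderated test with a mean trend (limma 3.58.1, R 4.3.3) on log2(signal + 1), per tissue with all 12 mice, for genes that reached a signal of 1 in 4 or more libraries, with Benjamini-Hochberg adjustment over all genes of a tissue and comparison. A joint fit of the 45 groups of a tissue and condition tested differences among tissues. Mouse numbers differ between groups, so nothing pairs mice within a tissue. Tissues of 1 mouse are paired by the labels, with a within-mouse correlation of 0.0159, and a fit with the mouse as a block was an alternative. Other alternatives were a pseudocount of 0.25, no filter, median-of-ratios scaling, the 2 compared groups alone, edgeR 4.0.16 with its quasi-likelihood test on the recovered counts, and leaving out each mouse in turn. Scripts were tested on simulated data. No label says whether the mice of a group shared a cage or litter, and p-values measure the spread between these mice.

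The members and lists were chosen with earlier results of these data known. Named are the 10 members in every tissue, from each of 5 lists and each comparison up to 4 genes called in the most tissues, and per member the 3 genes most alike in pattern. Of 64 listed genes, 60 were in the table. Gene positions are from GENCODE M21, which held 13555 of the 13820 symbols, and promoters from RefSeq. Other software was Python 3.11.15, pandas 2.3.3, numpy 2.4.6, scipy 1.17.1 and matplotlib 3.10.9.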

Additional observations from a re-analysis of the deposited data

Results flagged for a closer look

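Each of the 10 genes was checked in the same 45 groups of 4 mice, which gave 450 sets of 4 values. In 36 of them (8.0%), 1 value lay further from the other 3 than the 95% critical value of Dixon's test allows. Chance gives about 1 in 20 for independent sets, but genes of the same libraries are not independent. Mouse 1 held 7 of these values, 5 of them from its single lymph node library, mouse 10 held 5 and mouse 12 held 4. Hamp in colon was 12.5 in wild-type LPS mouse 5, above 8.60 to 8.72 in the other 3. In brown fat it was 22.4 in wild-type LPS mouse 5, above 11.4 to 13.1. In lymph node it was 34.0 in PBS mouse 1, above 5.94 to 8.47. In brain it was 4.54 in PBS mouse 1, below 6.54 to 6.77. In the colon libraries of the wild-type LPS mice, 1 count stood for a signal of 0.967 to 1.72. Low Hamp values such as those in colon therefore lie few counts apart. Slc40a1 in muscle was 90.8 in TNF-deficient LPS mouse 9, above 49.3 to 52.1 in the other 3. In white fat it was 4.70 in TNF-deficient LPS mouse 12, below 12.8 to 13.9. In skin it was 60.9 in TNF-deficient LPS mouse 11, above 17.4 to 20.8. Tfrc in kidney was 33.0 in PBS mouse 3, above 23.6 to 24.2 in the other 3. In skin it was 26.1 in TNF-deficient LPS mouse 12, above 12.6 to 14.8. In small intestine it was 76.2 in wild-type LPS mouse 7, above 55.4 to 56.4. Fth1 in small intestine was 2533 in wild-type LPS mouse 7, below 3240.3 to 3384 in the other 3. Trf in lung was 113 in wild-type LPS mouse 6, below 187 to 193 in the other 3. In brown fat it was 138 in wild-type LPS mouse 6, below 175 to 179. In bone marrow it was 119 in PBS mouse 1, below 128 to 129. In lymph node it was 434 in PBS mouse 1, above 100.8 to 113. Hmox1 in brain was 13.7 in TNF-deficient LPS mouse 11, above 12.2 to 12.3 in the other 3. In brain it was 10.8 in PBS mouse 3, above 8.88 to 9.08. Cp in liver was 1389.5 in TNF-deficient LPS mouse 10, below 1503 to 1521 in the other 3. In spleen it was 108 in TNF-deficient LPS mouse 12, above 84.6 to 88.2. In lung it was 138 in PBS mouse 4, below 152 to 155. Lcn2 in thymus was 260.2 in PBS mouse 4, above 237 to 240.4 in the other 3. In lymph node it was 518 in PBS mouse 1, above 132 to 144. In small intestine it was 141 in PBS mouse 2, below 169 to 173. Hp in liver was 26368 in wild-type LPS mouse 8, above 17845 to 18714 in the other 3. In spleen it was 504 in TNF-deficient LPS mouse 10, above 421 to 423. In heart it was 1077 in wild-type LPS mouse 7, above 420.4 to 509. In brown fat it was 1095 in PBS mouse 2, above 851 to 884. In lymph node it was 1019 in PBS mouse 1, above 197 to 242. In skin it was 902 in TNF-deficient LPS mouse 12, below 1181 to 1211. Hpx in thymus was 243 in TNF-deficient LPS mouse 10, above 203 to 206 in the other 3. In heart it was 250.4 in wild-type LPS mouse 8, above 232 to 235. In muscle it was 219 in TNF-deficient LPS mouse 10, below 279.6 to 291. In brown fat it was 677 in TNF-deficient LPS mouse 9, below 803 to 811. In lymph node it was 1197 in PBS mouse 1, above 119.9 to 134. In small intestine it was 185 in wild-type LPS mouse 6, above 143 to 144. In brain it was 275 in TNF-deficient LPS mouse 10, above 182 to 196.

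The difference between the TNF-deficient and wild-type LPS mice was itself tested for a difference among the 15 tissues, and it passed at an adjusted p of 5.1e-04 or less, with limma's moderated F, for Hmox1 (19.8), Lcn2 (4.90), Cp (4.55), Tfrc (4.54) and Fth1 (3.61). The change of the wild-type LPS from the PBS mice passed at an adjusted p of 0.0040 or less for Lcn2 (47.0), Fth1 (36.5), Cp (28.3), Hp (26.4), Hmox1 (26.1), Slc40a1 (19.0), Hpx (16.5), Trf (5.56), Tfrc (5.00) and Hamp (2.63). Without mouse 1 the F of Hamp did not pass (1.89, adjusted p 0.052). Between the LPS groups, Slc40a1 (adjusted p 0.060) and Hamp (adjusted p 0.086) missed the threshold, and Slc40a1 passed without mouse 6 or 11 and Hamp without mouse 12.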

How the results depend on the processing

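No called difference of a member turned its direction under any alternative run. Of 85 calls of a member for the wild-type LPS against the PBS mice, 76 held under each alternative other than those chosen after seeing the data, as did 22 of 31 for the TNF-deficient against the wild-type LPS mice and 69 of 83 for the TNF-deficient LPS against the PBS mice. Leaving out 1 mouse in turn gave 78 to 86, 26 to 39 and 74 to 84 member calls in these comparisons, with 39 without mouse 6 and 26 without mouse 5. For the other iron and heme genes it gave 230 to 263 calls after LPS and 68 to 116 between the LPS groups, of which 44 to 76 were higher and 20 to 40 lower. edgeR called 85, 37 and 84 member pairs. Its 44 lower calls of other iron and heme genes between the LPS groups, against 29 by limma, moved by over 1.5 times. So did the lower calls of the storage and sensing list (3 against 0) and of hepcidin control (5 against 3), those of Hpx (1 against 0), and the lower calls over all genes in single tissues, such as 454 against 167 in brown fat. The cause was not tested. With the mouse as a replicate block, the change after LPS differed among tissues for 10 members and 71 pairs, and the difference between the LPS groups for 5 members and 12 pairs. Without the block the pairs were 70 and 11. Leaving out a mouse gave 9 to 10 members and 63 to 74 pairs after LPS, and 5 to 6 members and 9 to 14 pairs between the LPS groups. Calls ended without a filter for Hp in thymus, Tfrc in lymph node and Trf in lung after LPS, and for Fth1 in heart and Slc40a1 in spleen between the LPS groups. With only the compared groups in the fit they ended for Hpx and Trf in lung and Tfrc in colon after LPS, and for Fth1 in heart and Tfrc in brain and small intestine between the LPS groups. With edgeR they ended for Tfrc in colon (adjusted p 0.061) and Trf in lung (adjusted p 0.052) after LPS. For the TNF-deficient LPS against the PBS mice they ended for Hp in spleen and Tfrc in bone marrow with edgeR (adjusted p 0.055 and 0.074) and with median-of-ratios scaling (adjusted p 0.075 and 0.077). Without a filter that comparison lost Hamp and Hmox1 in heart, Hmox1 in spleen, Hp in thymus, Hpx in brain, Slc40a1 in small intestine and Tfrc in bone marrow and kidney, and with a pseudocount of 0.25 Hamp in heart. Calls not made with all mice appeared between the LPS groups without mouse 6 for 4 members in lung, Lcn2 in colon and thymus, Hmox1 in white fat, Slc40a1 in kidney and Tfrc in colon. Settings chosen after seeing the data left out the libraries highest in liver transcripts (lymph node and brain), skeletal muscle transcripts (brown fat) or erythroid transcripts (spleen). Members called after LPS, between the LPS groups and for the TNF-deficient LPS against the PBS mice were then 6, 0 and 6 in lymph node without mouse 1, 3, 1 and 3 in brain without mice 6 and 8, 7, 1 and 7 in brown fat without mice 7 and 8, and 7, 3 and 6 in spleen without mouse 4. Members with few counts, such as Hamp outside liver and heart, could show only large changes at this depth.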
